A study of Mus musculus with 4 samples.

Results

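The D-type cyclins, their kinase partners and the inhibitors of these kinases were followed in primary mouse chondrocytes with and without tumour necrosis factor (TNF). The genes were Ccnd1, Ccnd2, Ccnd3, Cdk4, Cdk6, Cdkn1a, Cdkn1b, Cdkn1c, Cdkn2b and Cdkn2c, 10 of the 37042 genes or unnamed transcripts that the arrays measured. They were chosen by name, and every probe whose listed accession is a RefSeq transcript of one of them was taken, whatever its signal, which gave 15 probes on 24 spots of each array. The cells came from 6-day-old littermate mice, and the study's methods give C57BL/6J as the strain of its chondrocyte donors. The cells called controls here were Rela fl/fl, that is, both copies of Rela carry loxP sites but no Cre was present. The other genotype was Prrx1-Cre; Rela fl/fl, called cKO, in which the Prrx1 promoter drives Cre in limb mesenchyme, the tissue from which limb chondrocytes form, so that cells of other origin keep Rela. Each genotype was cultured for 3 days with 10 ng per ml TNF or without it. There was 1 array for each of the 4 conditions, and without replicates no test between conditions was made. How many mice were pooled for a culture is not given in the sources used here.

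Progress through the first gap phase of the cell cycle depends on D-type cyclins, which rise when growth signals arrive and bind the kinases CDK4 and CDK6. The active pairs phosphorylate the retinoblastoma protein RB, which then releases E2F transcription factors, and E2F turns on genes for DNA replication. Inhibitors of the INK4 family, here Cdkn2b and Cdkn2c, bind CDK4 and CDK6 alone and keep cyclins away, whereas the Cip/Kip family, here Cdkn1a, Cdkn1b and Cdkn1c, binds cyclin-CDK pairs and blocks CDK2 most strongly. In the growth plate, cyclin D1 is known as a marker of dividing chondrocytes, and Cdkn1c, an imprinted gene, as one that chondrocytes need to leave the cycle and enlarge.

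The arrays held 1 dye, and the deposited files hold spot intensities from which the scanner's software had subtracted background. Signals below are these intensities divided by the 75th percentile of all transcript spots on that array, so that a signal of 1 is that percentile. A difference is always a log2 difference between 2 arrays, and 1 on this scale is 2-fold. The 75th percentiles lay between 590 and 634 intensity units, and 50.9% to 58.1% of 55619 probes were well above background by the software's flag. Each array also had patches of spots brighter than on the other arrays, which held 1.04% to 10.7% of its spots. Probes printed on 10 spots gave a technical SD of 0.14 for a difference between 2 arrays, or 0.08 for such probes with a signal of 3 or more. This SD leaves out the spread between cultures. Of the 15 probes, 14 were well above background on all 4 arrays, and no spot of them was flagged as an outlier or saturated.

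The signal of the targeted gene was not lower on the cKO-labelled arrays. For this genotype the paper reports recombination of the floxed allele in chondrocytes, by PCR, and deletion of Rela in tissues, by RT-PCR. The signal of Rela was 28.3 and 34.7 in controls without and with TNF and 33.9 and 40.2 on the cKO-labelled arrays, which were 0.26 and 0.21 higher. The files do not hold probe sequences, so whether this probe lies in the deleted part of Rela was not tested. Of 22 genes known to respond to TNF, 12 of the 21 tested were higher at the 2-fold limit with TNF in controls and 7 of the 20 tested on the cKO-labelled arrays. With TNF, 9 of 21 were lower past that limit on the cKO-labelled array. The label cKO is therefore used below only as a name of 2 arrays. Xist, the RNA that silences an X chromosome, was detected above background only on the control arrays, with differences of -4.79 and -4.82 or lower, and Ddx3y on the Y chromosome was 1.49 and 1.71 higher on the cKO-labelled arrays. Ddx3y was also well above background in controls, with a signal of 1.30 both without and with TNF, beside 3.66 and 4.23 on the cKO-labelled arrays. Eif2s3y, also Y-linked, had 1.77 and 1.84 in controls and 6.23 and 6.53 on the cKO-labelled arrays. Uty was well above background only on the cKO-labelled arrays, and Kdm5d on no array. Some probes of Y-linked genes thus gave a signal in control RNA, as did Xist, and what else these probes detect was not tested. The genotype label and the mix of male and female cells therefore cannot be told apart.

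**Figure D1:**
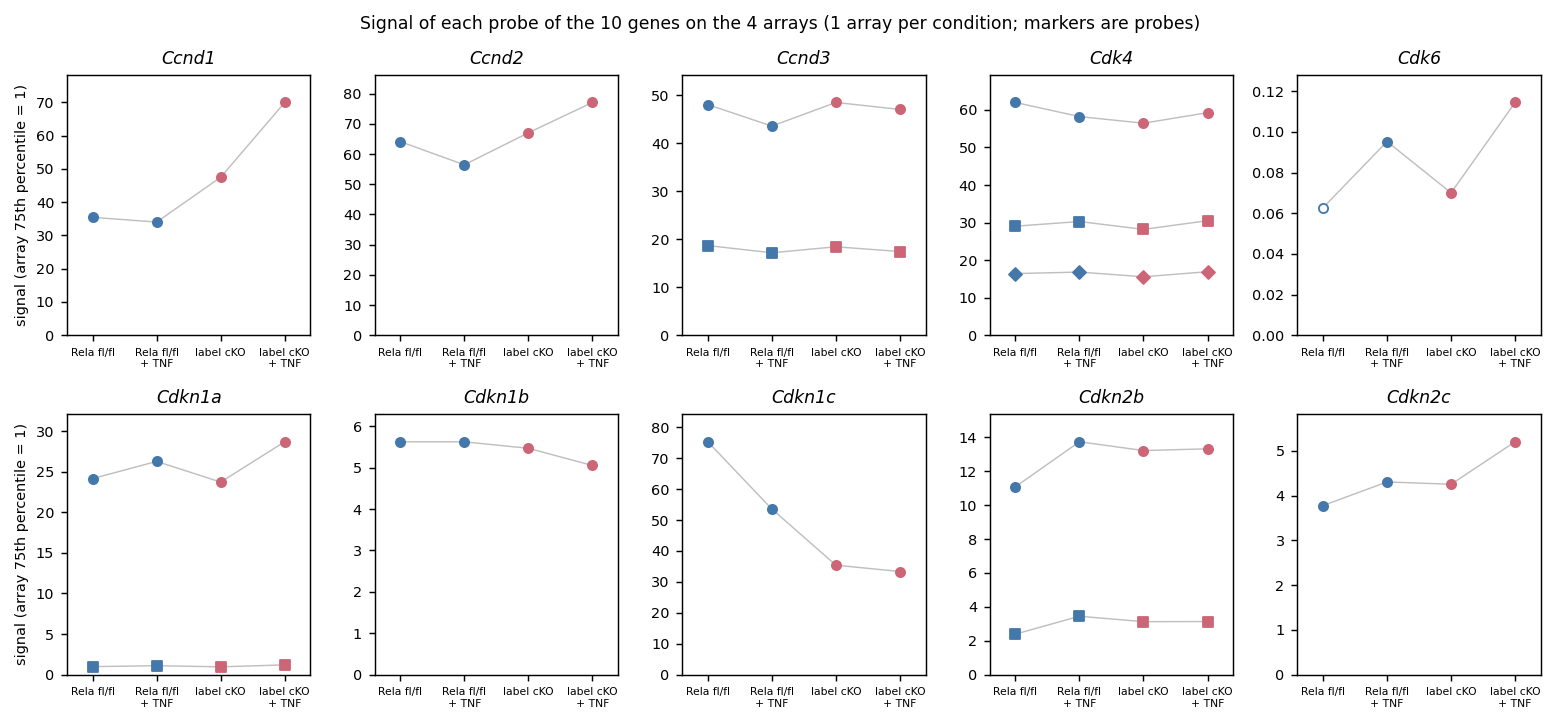
Signal of every probe of the 10 genes on each of the 4 arrays, on a linear axis from 0 with the 75th percentile of the array as 1. Marker shapes are probes of the same gene, thin lines join the values of a probe, and the open point is not well above background. Ccnd1 goes from 34.0 to 70.0 and Cdkn1c from 75.3 to 33.3, while Ccnd3, Cdk4 and Cdkn1b stay nearly level.

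Of the D-type cyclins, Ccnd1 differed most between arrays. Its probe (NM_007631) had a signal of 35.4 in controls without TNF, 34.0 with TNF, 47.5 on the cKO-labelled array without TNF and 70.0 on the cKO-labelled array with TNF. Both control arrays were alike, and both arrays labelled cKO were above them. The difference between the cKO-labelled arrays and controls was 0.42 without TNF and 1.04 with it. Under TNF, Ccnd1 differed by -0.06 in controls and by 0.56 on the cKO-labelled arrays, a difference of 0.62 between the TNF changes. The technical SD of such a difference of differences was 0.20, or 0.11 at a signal of 3 or more. In bulk RNA of this kind, fewer cells of a type and less RNA per cell cannot be told apart.

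Among the 7468 genes with a mean signal of 3 or more, 21 (0.281%), Ccnd1 included, were at least 1.04 higher on the cKO-labelled array with TNF. Without TNF, 180 (2.41%) were as far above controls as Ccnd1, and 71 (0.951%) had as high a TNF change on the cKO-labelled arrays. Ccnd1 was therefore in the upper tail of well measured genes in each of these 3 comparisons.

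Ccnd2 and Ccnd3 can replace cyclin D1 in many cells. The signal of Ccnd2 (NM_009829) was 64.2 and 56.5 in controls without and with TNF, and 67.1 and 77.1 on the cKO-labelled arrays. It was the lowest of the 4 in controls with TNF and the highest on the cKO-labelled array with TNF, with a difference of 0.45 between these 2 arrays and of 0.06 without TNF. Ccnd3 had 2 probes. The brighter (NM_001081636) gave 48.1 and 43.6 in controls and 48.5 and 47.1 on the cKO-labelled arrays, and the other (NM_007632) gave 18.7, 17.2, 18.4 and 17.4 in the same order. All differences of both Ccnd3 probes were between -0.14 and 0.11, within 2 technical SDs, and the probes were at most 0.09 apart in any comparison. The ordering Ccnd1, Ccnd2, Ccnd3 by size of the difference with TNF (1.04, 0.45 and 0.11) is that of single arrays.

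Cdk4, a kinase partner of all 3 D-type cyclins, was nearly level. Its brightest probe (NM_009870) gave 62.0 and 58.2 in controls without and with TNF and 56.5 and 59.3 on the cKO-labelled arrays, and its differences were -0.09 and 0.07 with TNF and -0.13 and 0.03 for the cKO label. The other 2 probes stayed between 28.2 and 30.5 and between 15.6 and 16.9, and the 3 probes were at most 0.15 apart. Cdk6 was dim. Its signal (NM_009873) was 0.0627 in controls without TNF, where it was not well above background, 0.0952 with TNF, and 0.0700 and 0.114 on the cKO-labelled arrays without and with TNF. Both arrays with TNF were above both arrays without it. The TNF difference was 0.60 in controls and 0.71 on the cKO-labelled arrays, but with another background correction (normexp) these values were 0.19 and 0.23. The cKO label gave 0.16 without TNF, which was -0.02 with normexp, and 0.27 with TNF, which was 0.02 with normexp. The values of 0.60 and 0.16 use the control signal that was not well above background.

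Of the Cip/Kip inhibitors, Cdkn1c had the largest differences in these 4 comparisons except for TNF on the cKO-labelled arrays. Its signal (NM_009876) was 75.3 in controls without TNF, 53.6 with TNF, 35.4 on the cKO-labelled array without TNF and 33.3 on the cKO-labelled array with TNF. Both arrays labelled cKO were below both control arrays. The difference for the cKO label was -1.09 without TNF and -0.68 with it. Under TNF, Cdkn1c differed by -0.49 in controls and by -0.09 on the cKO-labelled arrays, a difference of 0.41 between the TNF changes. Of 7468 genes with a mean signal of 3 or more, 7 (0.0937%), Cdkn1c included, were as low as -1.09 without TNF, 40 (0.536%) were as low as -0.68 with TNF, and 19 (0.254%) were as low as -0.49 with TNF in controls.

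The single spot of Cdkn1c lay in a bright patch of the control array without TNF, the array on which its signal was highest. On that array, 45 spots in patches belonged to repeated probes with a signal of 10 or more outside patches. These spots differed from spots of the same probe outside patches by a median of 0.003, with 0.19 as the largest size. The comparison of the 2 arrays with TNF, which gave -0.68, does not use that array. With patches left out Cdkn1c had no value, and the part of the patch in its -1.09 and -0.49, which both use that array, was not tested. Ccnd2 also lay in a patch there.

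Cdkn1a, a p53 target that arrests the cycle after damage, was measured by a probe with 10 spots (NM_007669). Its mean signal was 24.2 and 26.3 in controls without and with TNF and 23.7 and 28.7 on the cKO-labelled arrays. The 10 spots lay between 23.1 and 24.8, 25.0 and 27.1, 22.9 and 24.7, and 27.7 and 30.1 on these arrays in turn, so that the spots of arrays with TNF did not overlap those without it, although spots of 1 array are not replicates of the condition. The TNF difference was 0.12 in controls (0.05 to 0.24 under other settings), where 1387 of the 7468 well measured genes (18.6%) were as high. It was 0.27 on the cKO-labelled arrays, where the median of the 7468 was 0.12, and 733 of them (9.82%) were as high. The other probe (NM_001111099), with a signal between 0.951 and 1.19, gave 0.16 and 0.33. For the cKO label, the main probe gave -0.03 without TNF and 0.13 with TNF. Cdkn1b, which is held high in resting cells, was level, with signals (NM_009875) of 5.63 in controls both without and with TNF and of 5.47 and 5.05 on the cKO-labelled arrays. Its differences were between -0.15 and 0.00.

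Of the INK4 inhibitors, Cdkn2b, known to be induced by TGF-β, was lowest in controls without TNF. Its brighter probe (NM_007670) gave 11.1 there, 13.7 with TNF, and 13.2 and 13.3 on the cKO-labelled arrays, and the other probe gave 2.39, 3.44, 3.12 and 3.13 in the same order. On both probes 3 arrays were close together and the control array without TNF was below them. The TNF difference in controls was 0.31 and 0.53 by the 2 probes, and on the cKO-labelled arrays it was 0.01 and 0.00. The difference for the cKO label was 0.25 and 0.39 without TNF and -0.04 and -0.14 with TNF. Cdkn2c, which is known to rise when cells differentiate, had signals (NM_007671) of 3.78 and 4.30 in controls and 4.25 and 5.20 on the cKO-labelled arrays. Its differences were 0.19 and 0.29 with TNF and 0.17 and 0.27 for the cKO label, all above 0.

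The RefSeq promoter windows of the genes were searched for motifs of NF-κB and AP-1, factors that TNF is known to activate, for the CRE motif of CREB and for E2F motifs. A window runs from 250 bases before to 50 bases after an annotated start on GRCm38.p6, and 10 windows were given for 7 of the genes. Ccnd1, Ccnd2 and Cdkn1c were not among these 7. The CRE motif TGACGTCA stood in 1 of the 10 windows, that of Cdkn2b, and in 1.79% of all 32851 windows. None of the 10 held the NF-κB consensus (8.46% of all windows), the AP-1 motif TGANTCA (7.81%) or an E2F motif spelled TTTCCCGC, TTTCGCGC, TTTGCCGC or TTTGGCGC (2.26%), all searched on both strands. The Cdkn2b upstream window is printed because it alone held a motif. It reads 5′ to 3′ toward the start (chr4:89311033-89311282, minus strand), and the capitals mark the CRE motif, a palindrome that spans positions -46 to -39 before the start.

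Cdkn2b: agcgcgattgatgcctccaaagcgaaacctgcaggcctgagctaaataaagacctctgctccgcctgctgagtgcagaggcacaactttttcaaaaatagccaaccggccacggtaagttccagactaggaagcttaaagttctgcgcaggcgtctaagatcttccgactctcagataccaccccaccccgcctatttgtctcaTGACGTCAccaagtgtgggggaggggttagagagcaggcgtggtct

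Such a match describes the sequence, and binding to it was not measured.

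**Figure D2:**
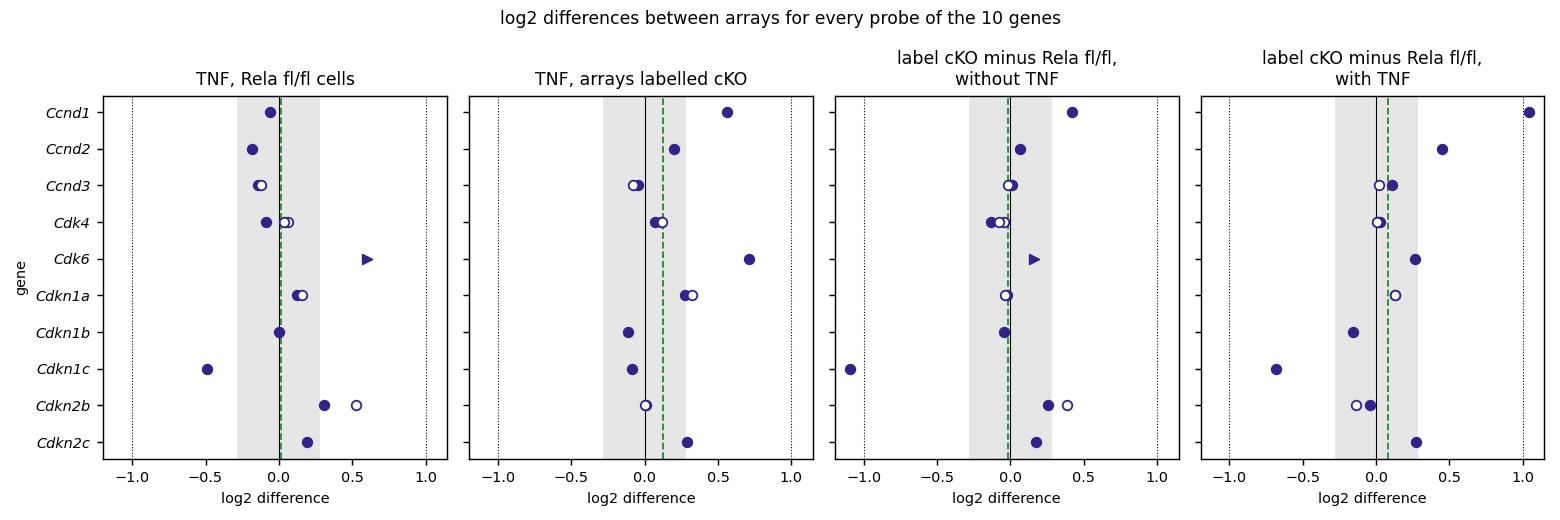
log2 differences of every probe of the 10 genes in the 4 comparisons. Filled points are the probes used for the gene and open points its other probes. Triangles are differences in which 1 of the 2 arrays was not well above background. The grey band is 2 technical SDs (SD 0.14) on either side of 0, dotted lines mark 2-fold and the dashed line the median of the 7468 genes with a signal of 3 or more. Cdkn1c at -1.09 without TNF and Ccnd1 at 1.04 with TNF are the points past the dotted lines.

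Counted against a 2-fold limit, none of the 10 genes differed with TNF in controls, where 6.66% of the 23408 genes tested were past the limit, and none on the cKO-labelled arrays, where 5.47% of 24903 were. For the cKO label, 1 of 10 was past the limit without TNF (Cdkn1c, lower; 7.9% of 24277 genes in either direction) and 1 of 10 with TNF (Ccnd1, higher; 4.37% of 24513). At a 1.5-fold limit, 1 gene (Cdk6) was past it with TNF in controls, beside 10.8% of all genes, and 1 (Cdk6) on the cKO-labelled arrays, beside 12.1%. For the cKO label, 1 gene (Cdkn1c) was past 1.5-fold without TNF, beside 13.6%, and 2 (Ccnd1 and Cdkn1c) with TNF, beside 10.2%. In a set of 10, a single gene is 10%, so these counts are near the share over all genes tested, dim ones included. With patches left out, 1.23% to 2.45% of all genes were past 2-fold in the 4 comparisons. Most background calls came from dim probes: among the 7468 genes with a mean signal of 3 or more, which include 9 of the 10 but not Cdk6, 0.362% and 0.495% were past 2-fold for the cKO label without and with TNF, and 0.214% and 0.241% with TNF in controls and on the cKO-labelled arrays. The median difference of the 10 genes was -0.03, 0.14, 0.04 and 0.12 in the 4 comparisons in the order of their plot, and that of all genes tested was 0.01, 0.06, 0.01 and 0.06. The Ccnd1 count rests on a value close to the limit and was lost when the arrays were left unscaled, under quantile normalization and with the authors' scaled values.

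The comparisons for the cKO label without and with TNF share no array. Cdkn1c was lower by more than 1.5-fold in both, as were 24 of the 7468 well measured genes in all (0.321%). Ccnd1 was higher in both (0.42 and 1.04), although below 1.5-fold in the first. With a different Cre line, Col2a1-Cre, the paper reports unchanged mRNA of Ccnd1 and Cdkn1c in primary chondrocytes by RT-PCR. It also reports no change in cell proliferation with that line.

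**Figure D3:**
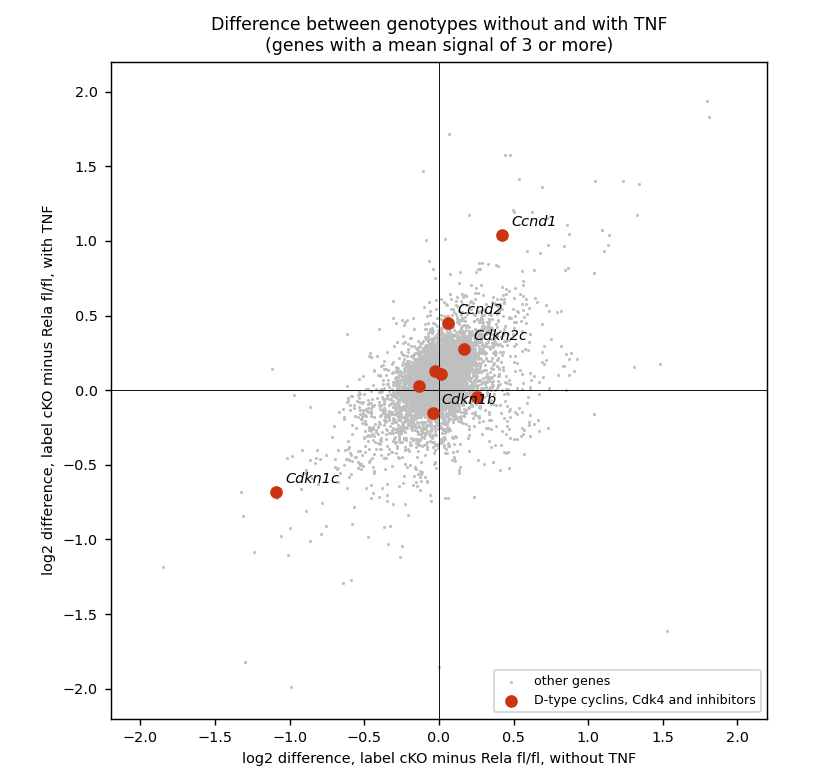
Difference between the cKO-labelled arrays and controls without TNF (horizontal, log2) and with TNF (vertical, log2) for the 7468 genes with a mean signal of 3 or more. Red points are the 9 genes with such a signal: Cdkn1c lies at -1.09 and -0.68 and Ccnd1 at 0.42 and 1.04, outside the main cloud, and the other 7 lie nearer the centre.

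Downstream of the D-type cyclins, a list of RB-E2F and G1/S genes was followed. Of 29 genes listed, 28 were matched and 27 were tested (Ccne2 was not well above background on any array). None was past the 2-fold limit in any of the 4 comparisons, where 0.214% to 0.495% of the 7468 well measured genes were. The median difference of the 27 was 0.02 and 0.13 with TNF in controls and on the cKO-labelled arrays, and 0.02 and 0.14 for the cKO label without and with TNF. Under other scalings these medians ran from -0.02 to 0.13 and from 0.02 to 0.37 with TNF, and from -0.07 to 0.06 and from 0.07 to 0.17 for the cKO label, so both values of 0.02 change sign. The median of the 7468 well measured genes was 0.01, 0.12, -0.02 and 0.08 in the same order. The highest with TNF on the cKO-labelled array were E2f7, a repressor among the E2F factors and itself an E2F target, at 0.72, and Ccne1, the cyclin E gene that acts after cyclin D, at 0.65. The repressor E2f8, at 0.60, was also past 1.5-fold there and is named after its value was seen. In that comparison 8 of the 27 were above 2 technical SDs and none below. E2f7, Ccne1 and E2f8 were the 3 past 1.5-fold, as were 10.2% of all genes tested. Without TNF these 3 differences were 0.48, 0.15 and 0.45, and the spot of E2f7 lay in a patch of the cKO-labelled array that the first of them uses. The signal of Ccne1 was 6.69 and 6.06 in controls without and with TNF and 7.44 and 9.47 on the cKO-labelled arrays, with its highest value on the same array as Ccnd1. The lowest was Cdk2, the kinase that cyclin E binds, at -0.31 with TNF in controls and -0.38 for the cKO label without TNF, and its spot lay in a patch of the control array without TNF that both comparisons use.

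Of 20 proliferation genes, 16 were above 0 for the cKO label without TNF (13 to 17 under other scalings) and 20 of 20 with TNF (19 with no scaling or the authors' scaled values). The medians were 0.28 and 0.39 (0.19 to 0.33 and 0.33 to 0.43 under other scalings), while 1 gene was past 2-fold without TNF and none with TNF. The one was Aurkb, a mitotic kinase, at 1.24 with a signal of 0.0883 and 0.208 on the 2 arrays, and its spot lay in a patch of the cKO-labelled array without TNF. Rrm2, a subunit of the enzyme that makes deoxynucleotides, had signals of 13.7 and 13.6 in controls without and with TNF and 20.2 and 22.5 on the cKO-labelled arrays, 0.56 and 0.73 higher. With TNF, the list's median was -0.03 in controls, with 7 of 20 above 0, and 0.15 on the cKO-labelled arrays, with 15 of 20 above 0. The median of the 7468 well measured genes on these 2 arrays was 0.12, close to that of the list. For the cKO label these medians were -0.02 without TNF and 0.08 with TNF. Under other scalings the list's medians with TNF were -0.06 to 0.09 in controls and 0.03 to 0.39 on the cKO-labelled arrays, so the sign in controls depends on the scaling. Pcna and 6 MCM genes, which act in DNA replication, differed by -0.06 to 0.19 for the cKO label without TNF, where 3 of the 7 were below 0 (Mcm2, Mcm3 and Mcm7), and by 0.29 to 0.51 with TNF. This subset of the list was picked after its values were seen. They differed by -0.16 to 0.02 with TNF in controls and by 0.22 to 0.39 on the cKO-labelled arrays. The summed signal of the 20 genes was 147.5 and 142.5 in controls without and with TNF and 170.4 and 189.4 on the cKO-labelled arrays, both above both control arrays, as for Ccnd1. The 20 genes share these 4 arrays and are not replicates.

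Chondrocyte markers moved with the genotype label as well. Of 16 markers, all well above background on at least 1 array, 15 were below 0 for the cKO label without TNF and 14 with TNF, with medians of -0.56 and -0.31. Matn1, a cartilage matrix protein, was the lowest at -1.85 and -1.18, and Sox6 and Col9a2 were at -1.11 and -1.06 without TNF. The spot of Sox6 lay in a patch of the control array without TNF, and with patches left out the medians were -0.31 and -0.15 over 12 markers. With TNF, 14 of 16 were below 0 in controls (median -0.22), where Cdkn1c was at -0.49, and Sox6 was past 2-fold at -1.14. With patches left out this median was -0.13 over 12 markers. On the cKO-labelled arrays the median was 0.06, and -0.08 to 0.30 under other scalings, so that its sign depends on the scaling. Col2a1, the main cartilage collagen, was at -0.03 without TNF. The summed signal of the 16 was 1859 and 1758 in controls without and with TNF and 1448 and 1486 on the cKO-labelled arrays, both below both control arrays, as for Cdkn1c. The 8 fibroblast markers had medians of -0.30 and -0.38 and summed to 571 to 654. Of these, Dpt, with its spot in patches, was at -1.62 and -1.16, and Thy1 at -1.59 and -0.27. Of 8 leukocyte markers, Ptprc was not well above background on any array, and their summed signal of 35.9 to 44.6 was mostly that of Itgam (31.8 to 40.3). For the cKO label without TNF, 1 leukocyte marker was higher past 2-fold, Adgre1 at 2.87, with its spot in a bright patch of that cKO-labelled array. Lower past 2-fold were 2, Lyz2 at -2.11, with its spot in a patch of the control array, and Tyrobp at -1.61, not well above background on the cKO-labelled array. With TNF these 3 were at -0.50, -0.94 and -0.56, and none of the list was past 2-fold. Cdh5, Tek and Tie1 of 5 endothelial markers and Myod1, Myog and Ckm of 5 muscle markers were not well above background on any array. Of the rest, Kdr had signals of 17.5 to 20.5 and Pecam1 was dim but well above background on all 4 arrays, and for the cKO label they were at -0.05 and 0.37 without TNF and at 0.21 and -0.02 with TNF. Acta1 had signals of 1.70 to 2.65 and was at 0.55 and 0.54 for the cKO label, and Des was well above background only on the cKO-labelled array with TNF. The part of these cell type markers in the differences of Ccnd1 and Cdkn1c was not tested.

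**Figure D4:**
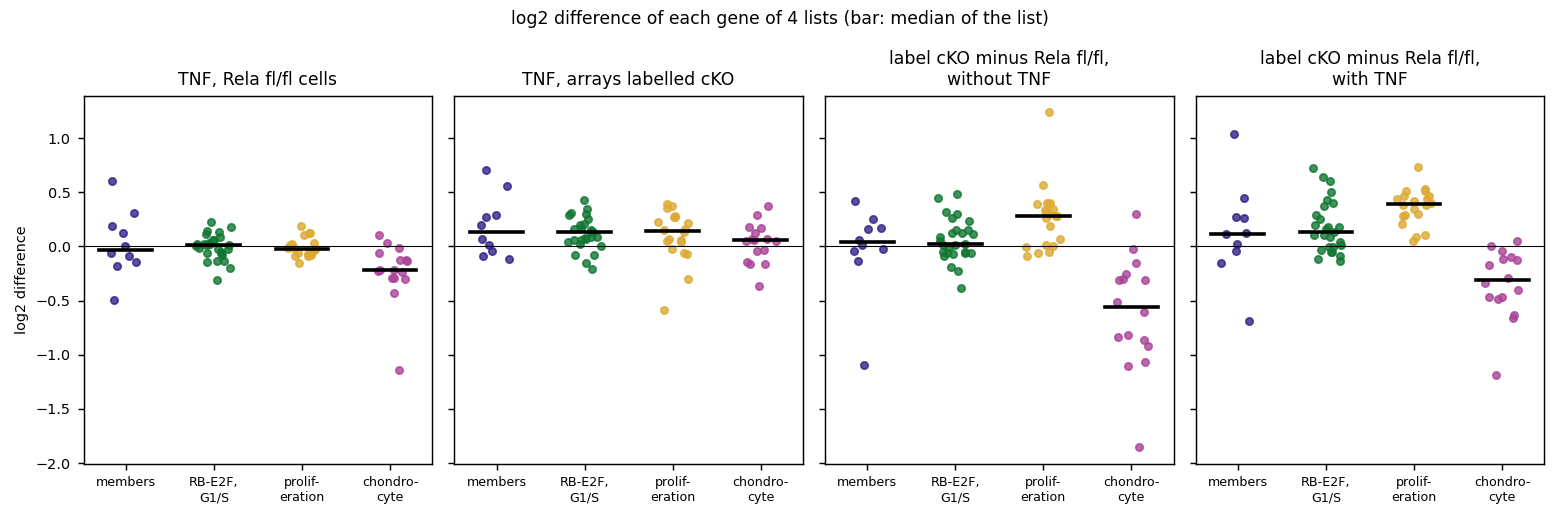
log2 difference of each gene tested of the 10 cell cycle genes (members), the RB-E2F and G1/S list (27 genes), the proliferation list (20) and the chondrocyte markers (16) in the 4 comparisons, with a bar at each median. For the cKO label, the proliferation list lies mostly above 0 (medians 0.28 and 0.39, with 16 and 20 of 20 above 0) and the chondrocyte list mostly below (medians -0.56 and -0.31).

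The genes with the pattern most like that of Ccnd1 or Cdkn1c were sought among genes with a symbol flagged well above background on each of the 4 arrays and outside patches, by the Euclidean distance between log2 values centred on their mean over the 4 arrays. For Ccnd1, these were Dyrk3 at a distance of 0.05, Gm6634 at 0.08 and Slc16a10 at 0.10, all with signals under 1. Within a distance of 0.5 lay 432 of 9659 genes. For Cdkn1c they were Cpxm1 at 0.06, Igf2 at 0.12 and Tmem213 at 0.18, and 152 of 9660 genes lay within 0.5. Igf2, the gene of a growth factor of the fetus, had signals of 28.4 and 21.4 in controls without and with TNF and of 14.96 and 13.5 on the cKO-labelled arrays. Its differences for the cKO label were -0.92 without TNF and -0.66 with TNF.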

How the data were processed

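Labelled RNA was hybridised to a 1-colour Agilent mouse 8x60K array. The deposited files are spot intensities written by Feature Extraction 10.10.1.1 (version per the submitters' processing notes) and a table of scaled intensity values, which were the processed intensity times 1 factor per array (1.77 to 1.83). The log2 processed intensity was lowered by the 75th percentile of 59305 transcript spots per array. Outlier spots were dropped and spots of a probe averaged. Where a gene had several probes, the one brightest on average was used. A signal without the flag for being well above background kept its value, or took the lowest flagged one of its array where it was below that. Symbols came from RefSeq (GRCm38.p6) by accession, which matched 20435 of 20809 NM accessions. No coordinates of the array, whose design names another build, were used. All 4 arrays lay on 1 slide.

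A spot lay in a patch when 3 or more spots within 5 rows and 2 columns were brighter than on every other array by 2-fold or more. All genes, lists and rules, among them the rule for named genes (every member is named, and of each list genes past 2-fold and the 2 farthest in each direction may be), were chosen with earlier results of these data known. The level of 3 for well measured genes was chosen after seeing the data. The alternatives were other scalings, background, filters, limits, probe summaries and leaving out patches. The files have no mean signal column, so normexp (offset 50) was run on spot medians. The counting rule was tested on simulated data. Python 3.11.15, numpy 2.4.6, pandas 2.3.3, R 4.3.3 and limma 3.58.1 were used. The 4 arrays limit the precision, and p-values were not computed. A planned comparison of protein sequences was not run.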

Additional observations from a re-analysis of the deposited data

Results flagged for a closer look

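With TNF, Ccnd2 was lower in Rela fl/fl cells (-0.18) and higher on the arrays labelled cKO (0.20), opposite directions under the same treatment. The difference was not tested, since each condition had 1 array. The median of well measured genes was 0.12 on the arrays labelled cKO, and the Ccnd2 value there was 0.02 under quantile normalization.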

How the results depend on the processing

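Of 437 values of single genes under alternative settings, 28 changed sign, in 18 of 50 results. By the technical SD over all repeated probes (0.14), 1 of these was larger in size than the SD before, Cdk6 for the cKO label without TNF, which was 0.16 and became -0.017 with normexp. The others were smaller than 0.14, although some exceeded the SD of bright probes (0.08), among them the TNF difference of Cdkn1c on the arrays labelled cKO (-0.09, and 0.15 with median scaling). Apart from that 1 value, 416 values moved by less than the SD over all repeated probes (0.20 for differences between TNF changes) and 20 by more. Of those 20, 16 were TNF differences on the arrays labelled cKO under quantile normalization or median scaling, and the difference between the TNF changes of Cdk6 was 0.32 with quantile normalization. Over all settings, Ccnd1 for the cKO label with TNF was 0.93 to 1.07, and Cdkn1c was -1.18 to -1.04 without TNF and -0.77 to -0.65 with TNF. The count past 2-fold for the cKO label with TNF was 1, and 0 with no scaling, quantile normalization, the authors' scaled values or a 3-fold limit, and 2 at 1.5-fold. Without TNF it was 1, and 0 at 3-fold or with patches left out, since Cdkn1c and Ccnd2 then had no value. Both TNF counts were 0, and 1 at 1.5-fold (Cdk6). For TNF on the arrays labelled cKO, the median of all genes was 0.06, and -0.05 with no scaling or the authors' values and 0.30 with median scaling. Of genes past 2-fold there, 18.9% were higher, with lower shares of 10.8% to 12.3% under normexp, the authors' values and no scaling, and higher ones of 29.6% with quantile normalization, 36.9% with median scaling and 37.1% with patches left out. Of the genes with a mean signal of 3 or more, 18 were past 2-fold there and all 18 were higher. No paired analysis was possible because each condition has 1 array and the groups compared share only 1 replicate number. A model of genotype plus TNF, with 1 residual degree of freedom, would have been possible and was left out. Leaving out a replicate was not possible for the same reason. With both arrays required to be well above background, the share of all genes past 2-fold fell to 2.14% to 3.57%, and with patches left out to 1.23% to 2.45%. Dim probes such as that of Cdk6 limit what can be read.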
